A study of Mus musculus with 6 samples.

Results

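Mucin-type glycosyltransferases are the Golgi enzymes that build and cap sugar chains on mucins and on other glycoproteins and glycolipids. The genes described here were taken by symbol from the deposited table: every gene named Galnt, Gcnt, B3gnt, B4galt, B3galt, St3gal, St6gal, St6galnac, B4galnt or Fut plus a number, leaving out Fut4. The rule found 68 of the 25339 genes in the table, and it used no measured value. Messenger RNA was sequenced from colon of mice that received lenvatinib or DMSO. Lenvatinib is a drug that blocks tyrosine kinase receptors, among them those of VEGF, FGF, PDGF and stem cell factor, and DMSO is a solvent. Each group has 3 libraries. The labels call them biological replicates. They give no dose, duration, strain, sex or age of the animals, and do not say whether colitis was induced or which animal each library came from. The p-values therefore measure the spread between these libraries, which may in part be technical.

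Chains of the mucin type start with N-acetylgalactosamine on serine or threonine, added by the Galnt enzymes. Core enzymes then place galactose or N-acetylglucosamine on this sugar, other enzymes extend the chain with alternating galactose and N-acetylglucosamine, and sialic acid, fucose or N-acetylgalactosamine closes it. In the colon such chains make up most of the mass of the secreted gel-forming mucin Muc2, hold its water and feed or bind gut bacteria. The symbol rule also takes enzymes that work mainly elsewhere. B4galt5, B4galt6, St3gal5 and B4galnt1 act on glycolipids, B4galt7 and B3galt6 build the linker of proteoglycans, and Fut8 acts on the core of N-linked chains, so the label fits only some of the 68 genes.

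Levels are FPKM (fragments per kilobase of gene with each library scaled to the same total), which allow comparison between genes. Differences are given as lenvatinib minus DMSO, in log2 of FPKM + 1. The added 1 makes the differences of weakly expressed genes look smaller than they are. Of the 68 members, 50 averaged 1 FPKM or more across the 6 libraries and were tested, and 18 were below. The test was limma over all 11774 genes that passed this filter, with Benjamini-Hochberg adjustment, and a gene is called at an adjusted p below 0.05. The whole table showed 129 genes higher and 110 lower, so that the share called was 2.03%. Depth was 37867317 to 39487125 reads in genes per library, as recovered from the values.

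The libraries did not spread evenly within their groups. DMSO 1 was the only library with transcripts of the Y-linked gene Ddx3y (6.54 FPKM, against 0 in the other 5) and had almost no Xist (0.00147 FPKM, against 15.9 FPKM in DMSO 2 and 3 and 18.7 to 19.8 FPKM in the lenvatinib libraries). By these genes DMSO 1 was male and the other 5 libraries female, so the groups were not balanced for sex. Over all genes tested, libraries 2 and 3 differed by a median of 0.0503 in the lenvatinib group and 0.0524 in the DMSO group on the log2 scale. Library 1 lay a median of 0.199 away from the mean of libraries 2 and 3 in the lenvatinib group and 0.125 in the DMSO group. Colonocyte markers were abundant in every library, with a summed level of 11824 to 18298 FPKM in the lenvatinib libraries and 12663 to 14560 FPKM in the DMSO libraries over 14 genes. Of the markers of cells other than epithelium, 5 of 5 tested for mast cells, 9 of 12 for macrophages and 5 of 10 for fibroblasts were called lower with lenvatinib, and none of the 10 for T cells, 11 for endothelium and 10 for smooth muscle was called. All 10 tested T cell markers had negative differences, and they summed to 111, 25.2 and 26.5 FPKM in lenvatinib 1 to 3. In DMSO 1 to 3 the sum was 57.2, 92.0 and 91.3 FPKM, so lenvatinib 1 lay above all DMSO libraries and lenvatinib 2 and 3 below them. The part of these cell types in the results below was not tested. In bulk tissue, fewer cells of a type and less RNA per cell cannot be told apart.

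Among the 50 tested members 1 was called, the branching enzyme Gcnt4, which was higher with lenvatinib. That is 2% of them, beside the 2.03% called over all genes and the 1.10% called higher, so the count is near the background. None was called lower, where 0.934% of all genes were. At an unadjusted p below 0.05 there were 15 members (30%), 5 higher and 10 lower, against 22.0% of all genes, 7.49% higher and 14.5% lower. The groups did not overlap for 19 members (38%), 6 higher and 13 lower, against 27.5% of all genes tested. The median difference of the members was -0.05, and that of all genes -0.07.

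**Figure D1:**
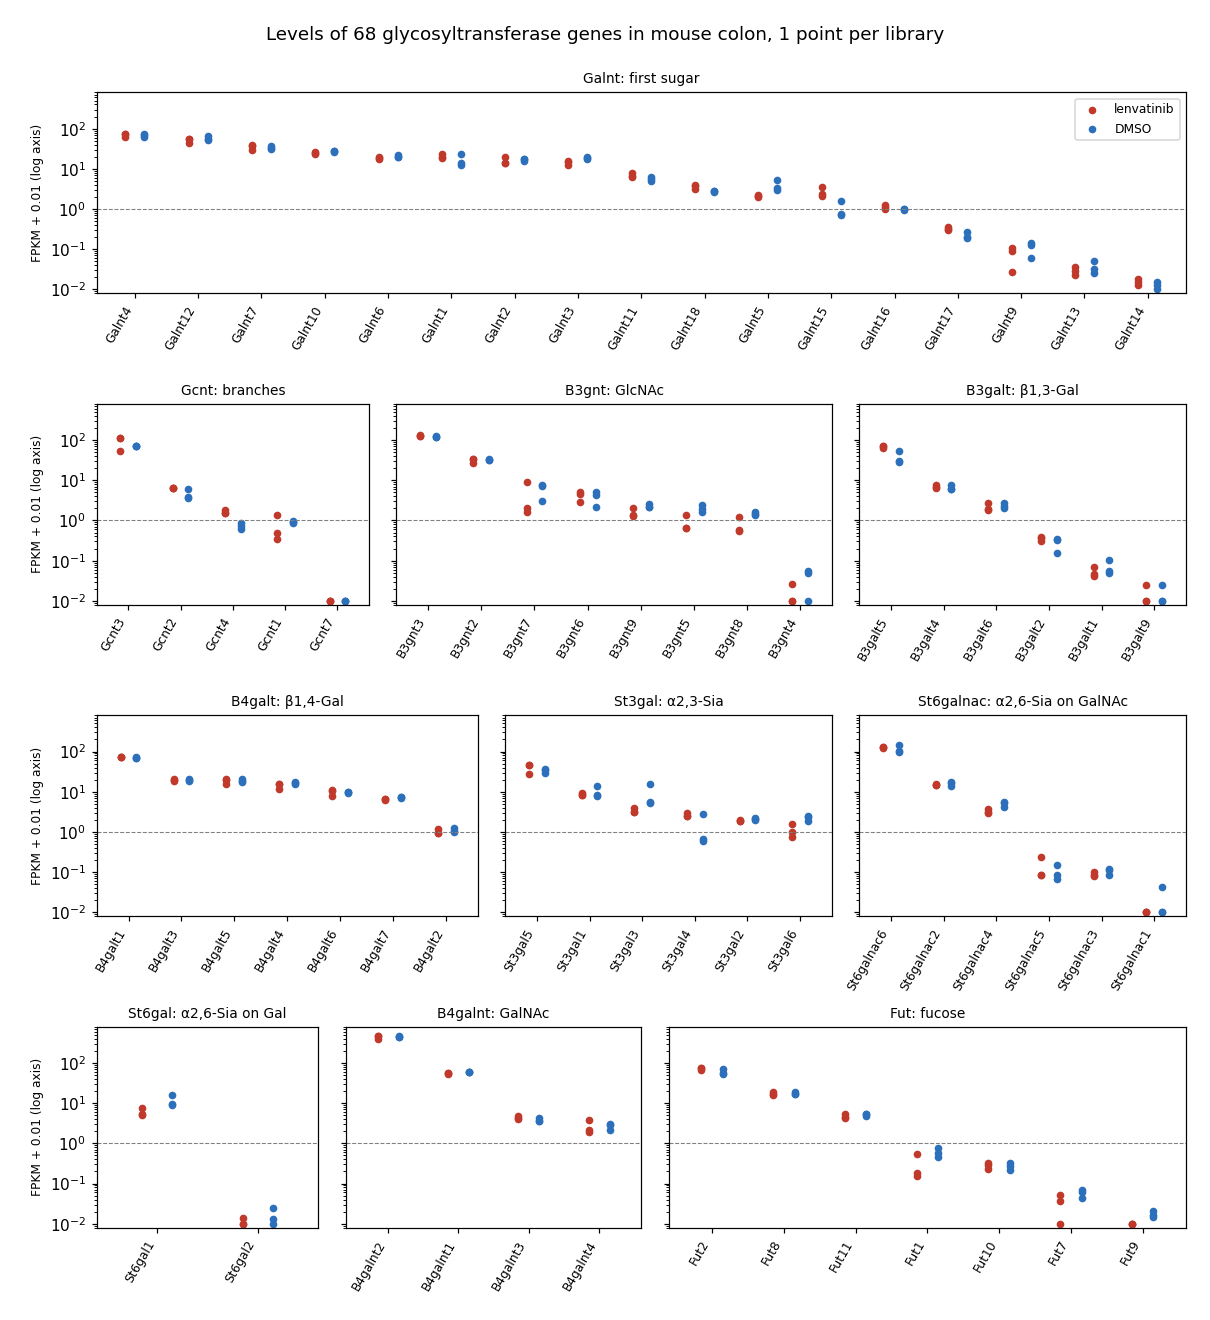
Levels of all 68 members, grouped by family and ordered by mean level, as FPKM + 0.01 on a log axis; each point is 1 library, lenvatinib in red at the left and DMSO in blue at the right, and the dashed line marks the 1 FPKM filter. A single member carried most of the level in most families, such as B4galnt2 at 391 to 475 FPKM with lenvatinib and 449.5 to 462 FPKM with DMSO.

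The first step was spread over many enzymes. Of 17 Galnt genes, 13 were tested, and the highest, Galnt4, held 24.8 to 27.0% of the summed Galnt level in the lenvatinib libraries and 21.8 to 27.1% in the DMSO libraries. It averaged 69.4 ± 6.95 FPKM with lenvatinib and 68.8 ± 5.52 FPKM with DMSO (SD, n = 3 each). Galnt12 followed at 51.6 ± 6.33 and 57.3 ± 6.56 FPKM for lenvatinib and DMSO, and Galnt7, which prefers peptides that already carry sugars, at 34.4 ± 4.97 and 34.3 ± 3.01 FPKM. The 95% interval of the difference was -0.23 to 0.25 for Galnt4, -0.44 to 0.14 for Galnt12 and -0.30 to 0.29 for Galnt7. Galnt10 came next, at 23.3 to 25.9 FPKM with lenvatinib and 25.9 to 27.8 FPKM with DMSO. Galnt6, Galnt1, Galnt2 and Galnt3 followed, and the ranges of neighbours in this order overlapped. Galnt11, Galnt18, Galnt5, Galnt15 and Galnt16 were lower still. Galnt9, Galnt13, Galnt14 and Galnt17 were untested, at 0.342 FPKM or less in every library. No Galnt gene was called. Galnt4 shares 420 exon bases with Poc1b on the same strand, so its reads are uncertain.

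Of the 4 Galnt genes with the smallest p, 2 pointed to more with lenvatinib and 2 to less. All 4 had groups without overlap, which choosing by small p favours. In the whole family 5 of 13 tested genes had such groups, against 27.5% of all genes tested. Galnt15 measured 3.49, 2.39 and 2.12 FPKM in lenvatinib 1 to 3 and 1.57, 0.693 and 0.745 FPKM in DMSO 1 to 3 (difference 0.88, limma adjusted p = 0.105). Every lenvatinib library was above every DMSO library, and library 1 was the highest in both groups. Galnt18 measured 3.88, 3.78 and 3.09 FPKM with lenvatinib, against 2.65, 2.79 and 2.82 FPKM with DMSO (difference 0.28, adjusted p = 0.160).

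Galnt3, which in humans and mice protects the phosphate hormone FGF23 from cleavage, measured 12.2, 15.6 and 14.7 FPKM with lenvatinib and 19.7, 18.1 and 18.1 FPKM with DMSO (difference -0.38, adjusted p = 0.114). Galnt5 measured 1.96, 2.06 and 2.22 FPKM with lenvatinib, against 5.17, 3.05 and 3.31 FPKM with DMSO (difference -0.63, adjusted p = 0.118). Neither passed, and in Galnt5 the DMSO 1 value was the highest of all.

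Branches are added by the Gcnt enzymes, which attach N-acetylglucosamine, and this family held the only call. Gcnt4, an enzyme that forms the core 2 branch, measured 1.84, 1.52 and 1.504 FPKM in lenvatinib 1 to 3, against 0.876, 0.617 and 0.711 FPKM in DMSO 1 to 3. These values rest on 429 to 519 reads per lenvatinib library and 180 to 245 reads per DMSO library. The groups did not overlap, and the ratio of the means was 2.21. The difference was 0.60 with an SE of 0.10 and a 95% interval of 0.36 to 0.83 (limma adjusted p = 0.0437). With limma voom on recovered reads it was 1.15 (adjusted p = 0.0282). The exons of Gcnt4 overlap those of the antisense gene Gm48597 over 535 bases, and the strand setting of the counting is not given, so reads of these genes cannot be told apart.

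This call was close to the threshold and depended on the libraries taken as independent. It was lost without DMSO 1 (adjusted p = 0.0514), DMSO 2 (0.213), DMSO 3 (0.217), lenvatinib 2 (0.162) or lenvatinib 3 (0.161). The call held without lenvatinib 1 (0.00759), when 38.0% of all genes were called. Leaving out any other library called 45 to 270 genes. With libraries 2 and 3 of each group averaged the adjusted p of Gcnt4 was 0.665, at the same difference of 0.60. Over 17 alternatives Gcnt4 passed in 8, and the difference stayed positive in all 17, between 0.54 and 1.15. The lenvatinib libraries also carried transcripts of the small intestine. Of 11 tested markers of small intestinal enterocytes 6 were called higher and none lower, with a summed level of 562 to 813 FPKM in lenvatinib libraries and 462 to 603 FPKM in DMSO libraries. Fabp6, a bile acid binding protein of the ileum, measured 148 to 161 FPKM with lenvatinib and 1.44 to 2.28 FPKM with DMSO. Whether these transcripts have a part in the Gcnt4 difference was not tested.

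Because Gcnt4 is the member that passed, both of its promoter windows are shown, 250 bases before to 50 after a RefSeq start on the plus strand of GRCm38.p6, at chr13:96924094-96924393 and chr13:96924463-96924762. Capitals mark a match to the HNF4 motif CAAAGTCC, read on the other strand.
Gcnt4 window 1: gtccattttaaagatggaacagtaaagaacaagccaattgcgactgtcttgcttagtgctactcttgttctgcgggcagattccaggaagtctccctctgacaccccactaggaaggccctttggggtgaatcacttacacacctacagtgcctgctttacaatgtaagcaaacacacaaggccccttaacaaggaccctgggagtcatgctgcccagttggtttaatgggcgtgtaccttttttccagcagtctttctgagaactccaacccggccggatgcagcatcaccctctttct
Gcnt4 window 2: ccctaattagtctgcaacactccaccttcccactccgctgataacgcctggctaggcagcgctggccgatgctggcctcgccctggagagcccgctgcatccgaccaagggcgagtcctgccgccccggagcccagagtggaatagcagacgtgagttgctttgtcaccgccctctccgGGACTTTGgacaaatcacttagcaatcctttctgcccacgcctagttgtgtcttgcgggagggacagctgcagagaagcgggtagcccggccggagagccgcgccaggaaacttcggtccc
Motifs of 3 factors of gut epithelium were searched on both strands: TTTATNG for Cdx2, GTTAAT for HNF1 and CAAAGTCC for HNF4. The HNF4 motif starts 71 bases before the start in the second window, and it is held by 1.42% of all 32851 windows and by 3 of the 69 windows of the 49 members in that table. The Cdx2 motif is in 10.9% of all windows and in 4 of the 69 member windows. For the HNF1 motif these are 7.10% and 1 of the 69. Neither motif is in the Gcnt4 windows. A match is a string of letters and not a measured site. The second window is richer in CpG, with 21 CpG and 62.7% G and C, than the first, with 5 CpG and 49.7% (median of all windows, 7 CpG and 52.7%).

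The other branching genes showed how much single libraries weighed. Gcnt3, the mucin-type enzyme that makes core 2 and core 4 branches, held 85.2 to 93.3% of the summed Gcnt level in the lenvatinib libraries and 90.1 to 93.1% in the DMSO libraries. It measured 54.5, 114 and 113 FPKM in lenvatinib 1 to 3, against 70.1, 70.3 and 72.8 FPKM in DMSO 1 to 3. Lenvatinib 1 lay below all DMSO libraries and lenvatinib 2 and 3 above them (difference 0.32, adjusted p = 0.503). Without lenvatinib 1, when 38.0% of all genes were called, the difference was 0.66 (adjusted p = 7.13e-04). Gcnt2, which makes the branched I antigen, measured 6.29, 6.42 and 6.29 FPKM with lenvatinib and 5.99, 3.67 and 3.80 FPKM with DMSO (difference 0.44, adjusted p = 0.194). Gcnt1, the widespread core 2 enzyme, was under the filter and measured 1.32, 0.471 and 0.344 FPKM with lenvatinib, against 0.880, 0.933 and 0.977 FPKM with DMSO. Gcnt7 was listed at 0 in all 6 libraries.

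Extension with N-acetylglucosamine was carried by B3gnt3, which lengthens core 1 chains. It measured 134, 128 and 129 FPKM with lenvatinib and 123, 120.4 and 122 FPKM with DMSO, without overlap, yet the difference of 0.10 did not pass (interval -0.03 to 0.22, adjusted p = 0.3002). B3gnt2, the main enzyme of polylactosamine chains, averaged 31.0 ± 3.79 FPKM with lenvatinib and 32.9 ± 1.04 FPKM with DMSO (SD, n = 3 each). B3gnt6, which makes the core 3 chain typical of colonic mucin, was low beside these, at 4.21 ± 1.24 and 3.75 ± 1.47 FPKM in the same order, and in both groups library 1 was the lowest.

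Another 3 members of this family, all weakly expressed, measured less with lenvatinib, and none passed. B3gnt5, which starts lacto-series glycolipids, measured 1.37, 0.628 and 0.658 FPKM with lenvatinib, against 2.35, 1.87 and 1.63 FPKM with DMSO (difference -0.66, adjusted p = 0.121). B3gnt8 averaged 0.776 ± 0.380 FPKM with lenvatinib and 1.49 ± 0.134 FPKM with DMSO (adjusted p = 0.154), and B3gnt9 1.56 ± 0.425 and 2.32 ± 0.254 FPKM (adjusted p = 0.185; SD, n = 3 each). The groups did not overlap in 4 of the 7 tested B3gnt genes, against 27.5% of all genes tested. These 3, with the smallest p of the family, were among the 4. In all 3 genes lenvatinib 1 was the lenvatinib library nearest to DMSO. All 3 passed without lenvatinib 1 (adjusted p = 0.00483, 0.00270 and 0.00834), when 38.0% of all genes did. B3gnt7, an enzyme of sulfated polylactosamine, had the largest gap of any tested member between library 1 and the mean of libraries 2 and 3 (1.81 in the lenvatinib group). It measured 8.95, 2.08 and 1.61 FPKM in lenvatinib 1 to 3, against 3.06, 7.39 and 7.82 FPKM in DMSO 1 to 3. Library 1 was the highest in one group and the lowest in the other, and the interval of its difference ran from -2.02 to 0.75. B3gnt4 was nearly absent, at 0.0155 FPKM or less with lenvatinib and 0.0451 FPKM or less with DMSO.

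Galactose is added by the B4galt and B3galt families, neither of which held a call. None of the 7 B4galt genes was called, and their differences ran only from -0.20 to 0.04. B4galt1, the main enzyme of this kind, measured 75.0, 73.7 and 72.9 FPKM with lenvatinib, against 75.1, 69.6 and 70.7 FPKM with DMSO (interval -0.09 to 0.18). B4galt3, B4galt4 and B4galt5 lay between 11.8 and 21.2 FPKM with lenvatinib and between 15.4 and 20.7 FPKM with DMSO, and their order was not separated by more than their spread. B4galt4, B4galt2 and B4galt6 were not called (adjusted p = 0.351, 0.744 and 0.9796). B4galt7 was the only gene of the family whose groups did not overlap, at 6.35 ± 0.234 FPKM with lenvatinib and 7.26 ± 0.279 FPKM with DMSO (SD, n = 3 each; adjusted p = 0.202).

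In the B3galt family the highest was B3galt5, which makes the type 1 chain that carries Lewis a. Its share of the summed level was 86.3 to 88.7% in the lenvatinib libraries and 86.6, 73.9 and 76.7% in DMSO 1 to 3. B3galt5 measured 62.7, 70.1 and 69.6 FPKM in lenvatinib 1 to 3, against 53.7, 29.2 and 29.9 FPKM in DMSO 1 to 3. Each library had 7950 reads or more for it. All lenvatinib libraries were above all DMSO libraries, and DMSO 1 lay nearer to the lenvatinib libraries than to DMSO 2 and 3. The ratio of the means was 1.79 and the difference 0.88, with a 95% interval of 0.31 to 1.45 (adjusted p = 0.121). Without DMSO 1 the difference was 1.16 (adjusted p = 0.00717). B3galt5 was also called without lenvatinib 1 (0.93, adjusted p = 0.0421), when 38.0% of all genes were. The family's summed level was 72.6 to 80.0 FPKM with lenvatinib and 39.0 to 62.1 FPKM with DMSO, and B3galt4, which makes gangliosides, was 7.04 ± 0.657 and 6.60 ± 0.938 FPKM in the same order (SD, n = 3 each). B3galt6 averaged 2.14 ± 0.495 FPKM with lenvatinib and 2.30 ± 0.316 FPKM with DMSO (adjusted p = 0.725). B3galt1, B3galt2 and B3galt9 were untested, at 0.378 FPKM or less in every library.

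B3galt5 was 1 of 3 members that were called without DMSO 1, all of them higher with lenvatinib, when 2.29% of all genes were called. The others were Gcnt2 (difference 0.63, adjusted p = 0.0205) and St3gal4 (1.15, adjusted p = 0.0150). The fit without DMSO 1 holds only libraries with Xist and without Ddx3y, and the part of sex in these calls was not tested. St3gal4, which adds sialic acid to lactosamine ends and makes selectin ligands, measured 2.94, 2.43 and 2.49 FPKM in lenvatinib 1 to 3, against 2.79, 0.672 and 0.579 FPKM in DMSO 1 to 3. With DMSO 1 in the fit its difference was 0.75 (adjusted p = 0.254). Its exons overlap those of 4930581F22Rik on the other strand, with the same limit as for Gcnt4. The same holds for Gcnt2 with A730081D07Rik, B3gnt8 with Bckdha and St6gal1 with BC106179. Exons of 19 of the 68 members overlap those of another measured gene, and not all of these are named here. Among them B4galt2 shares 1417 exon bases with Ccdc24 on the same strand, so its reads are uncertain.

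The promoter windows of B3galt5 and St3gal4 are shown because both genes were low in DMSO 2 and 3 alone. They lie at chr16:96235551-96235850, chr16:96273263-96273562 and chr16:96280782-96281081 on the plus strand for B3galt5, and at chr9:35116815-35117114 on the minus strand for St3gal4 (RefSeq, GRCm38.p6). Nothing is in capitals, because none of the 3 motifs was in these windows.
B3galt5 window 1: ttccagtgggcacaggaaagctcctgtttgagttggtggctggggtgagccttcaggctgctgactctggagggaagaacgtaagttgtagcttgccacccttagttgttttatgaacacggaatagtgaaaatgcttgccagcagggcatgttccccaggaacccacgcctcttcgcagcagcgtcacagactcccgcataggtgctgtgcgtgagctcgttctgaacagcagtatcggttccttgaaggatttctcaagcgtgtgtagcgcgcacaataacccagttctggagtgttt
B3galt5 window 2: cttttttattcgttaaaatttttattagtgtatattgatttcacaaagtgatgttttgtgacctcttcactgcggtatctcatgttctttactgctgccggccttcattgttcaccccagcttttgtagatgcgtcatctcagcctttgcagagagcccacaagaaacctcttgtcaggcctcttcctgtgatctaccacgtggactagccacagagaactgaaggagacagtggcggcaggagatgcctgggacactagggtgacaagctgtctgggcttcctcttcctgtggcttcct
B3galt5 window 3: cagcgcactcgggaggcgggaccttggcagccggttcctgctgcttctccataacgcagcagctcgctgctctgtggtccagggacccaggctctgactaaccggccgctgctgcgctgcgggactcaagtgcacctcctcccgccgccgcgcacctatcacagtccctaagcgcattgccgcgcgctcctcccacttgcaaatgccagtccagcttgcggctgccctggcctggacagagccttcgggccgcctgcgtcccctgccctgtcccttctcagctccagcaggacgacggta
St3gal4 window 1: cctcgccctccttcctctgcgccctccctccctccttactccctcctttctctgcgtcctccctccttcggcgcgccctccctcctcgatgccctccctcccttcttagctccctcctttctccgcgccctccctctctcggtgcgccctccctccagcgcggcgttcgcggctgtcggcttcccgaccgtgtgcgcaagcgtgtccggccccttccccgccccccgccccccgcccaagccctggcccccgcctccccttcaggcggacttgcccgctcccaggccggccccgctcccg
The windows differ in composition. St3gal4 has 31 CpG in its 300 bases and B3galt5 has 12, 6 and 24 in its windows 1 to 3. A gene-level value sums transcripts from all starts, so the levels above do not say which B3galt5 window was in use.

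**Figure D2:**
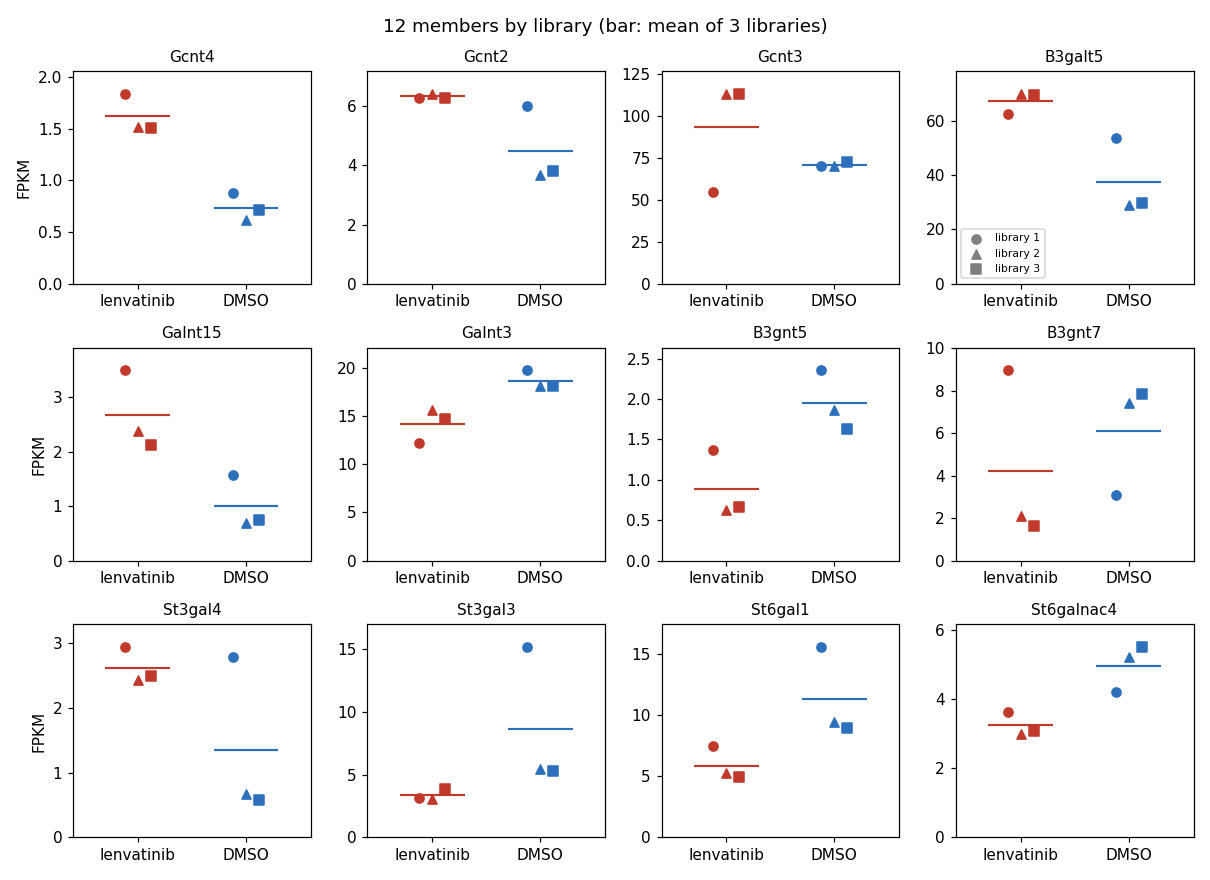
FPKM of 12 members in each library on linear axes that start at 0, lenvatinib in red at the left and DMSO in blue at the right; circles, triangles and squares are libraries 1, 2 and 3, and bars are means of 3 libraries. Gcnt4 is among the members without overlap between the groups, as are Gcnt2 and B3galt5. For Gcnt2, B3galt5 and St3gal4 the circle of DMSO 1 stands near the lenvatinib points. For Gcnt3 and B3gnt7 the circle of lenvatinib 1 stands apart.

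Sialic acid capping enzymes had some of the largest differences and no call. St3gal3, which caps lactosamine chains, measured 3.16, 3.06 and 3.82 FPKM in lenvatinib 1 to 3, against 15.2, 5.47 and 5.28 FPKM in DMSO 1 to 3. The groups did not overlap, but DMSO 1 was far above the rest, and the difference of -1.004 had an interval of -1.90 to -0.11 (adjusted p = 0.198). St3gal6, with a like substrate, measured 1.56, 0.758 and 1.01 FPKM with lenvatinib and 2.43, 1.87 and 2.33 FPKM with DMSO (difference -0.62, adjusted p = 0.111). Its exons share 1603 bases with Dcbld2 on the other strand, so its reads are uncertain.

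The highest of this family was St3gal5, the enzyme that makes the ganglioside GM3. It measured 26.9, 46.2 and 46.2 FPKM with lenvatinib, against 29.0, 35.5 and 36.2 FPKM with DMSO (difference 0.20, adjusted p = 0.581). Library 1 was the lowest in both groups. St3gal1, which caps core 1 chains, averaged 8.64 ± 0.670 FPKM with lenvatinib and 9.88 ± 3.29 FPKM with DMSO, and St3gal2, with the same kind of substrate, 1.85 ± 0.0612 and 2.09 ± 0.155 FPKM (SD, n = 3 each). Neither passed (adjusted p = 0.690 and 0.367).

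St6gal1, which caps N-linked chains with the sialic acid that the B cell receptor partner CD22 binds, measured 7.45, 5.23 and 4.92 FPKM in lenvatinib 1 to 3, against 15.5, 9.42 and 8.93 FPKM in DMSO 1 to 3. All lenvatinib libraries lay below all DMSO libraries, and library 1 was the highest in both groups. The ratio of the means was 0.520 and the difference -0.82, with an interval of -1.39 to -0.25 (adjusted p = 0.135). B cell markers are given beside it because B cells are known to express this enzyme. All 12 tested markers of B cells had negative differences, none was called, and their summed level was 14.5 to 73.8 FPKM with lenvatinib and 108 to 119 FPKM with DMSO. Plasma cell markers summed to 330 to 603 FPKM with lenvatinib and 621 to 1909 FPKM with DMSO, highest in DMSO 1, again with 0 of 8 called. Their part in the St6gal1 difference was not tested.

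Of the 6 St6galnac genes, which put sialic acid on N-acetylgalactosamine, St6galnac6 dominated at 120.5, 133 and 128 FPKM with lenvatinib, against 143, 99.1 and 101 FPKM with DMSO (adjusted p = 0.484). St6galnac4, which forms disialylated core 1 chains, had the smallest p of the members that add sialic acid. It measured 3.64, 3.01 and 3.09 FPKM with lenvatinib and 4.20, 5.22 and 5.51 FPKM with DMSO, without overlap (difference -0.49, interval -0.76 to -0.22, adjusted p = 0.0955). St6galnac2 averaged 14.8 ± 0.640 FPKM with lenvatinib and 15.9 ± 2.24 FPKM with DMSO (SD, n = 3 each; adjusted p = 0.613). St6galnac1, the enzyme of the sialyl-Tn antigen, was listed at 0 in all lenvatinib libraries and at 0.0330, 0 and 0 FPKM in DMSO 1 to 3, a single read in DMSO 1. St6galnac3 and St6galnac5 reached at most 0.231 FPKM and St6gal2 at most 0.0143 FPKM in any library.

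Capping with N-acetylgalactosamine gave the highest level of any member. B4galnt2, which makes the Sda antigen in gut epithelium, measured 391, 456 and 475 FPKM in lenvatinib 1 to 3, against 449.5, 454 and 462 FPKM in DMSO 1 to 3. Lenvatinib 1 was the lowest and the groups overlapped. The difference of -0.05 had an interval of -0.26 to 0.15 (adjusted p = 0.721), and its sign turned without lenvatinib 1, with median-of-ratios scaling and with weights per library. B4galnt1, the GM2 and GD2 synthase, measured 54.7, 55.8 and 57.3 FPKM with lenvatinib, against 58.4, 60.2 and 59.6 FPKM with DMSO, close but without overlap (difference -0.09, adjusted p = 0.345). Its exons overlap Slc26a10 on the other strand. B4galnt3 averaged 4.31 ± 0.386 and 3.84 ± 0.459 FPKM, and B4galnt4 2.59 ± 0.976 and 2.70 ± 0.486 FPKM, for lenvatinib and DMSO (SD, n = 3 each). Neither of these LacdiNAc enzymes passed (adjusted p = 0.417 and 0.844).

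Among the fucosyltransferases, Fut2, the secretor enzyme that makes the H antigen on gut epithelium, led with 70.1 to 78.9% of the summed level over the 6 libraries. It measured 67.4, 75.6 and 75.0 FPKM with lenvatinib, against 71.3, 55.6 and 52.3 FPKM with DMSO. DMSO 1 lay within the lenvatinib range, and the difference of 0.29 did not pass (interval -0.01 to 0.59, adjusted p = 0.240). Fut8 averaged 17.0 ± 1.62 FPKM with lenvatinib and 17.4 ± 0.971 FPKM with DMSO (adjusted p = 0.787), and Fut11 4.66 ± 0.557 and 5.21 ± 0.292 FPKM (adjusted p = 0.385; SD, n = 3 each). Fut1, the other H antigen enzyme, was under the filter, with 0.535, 0.146 and 0.176 FPKM with lenvatinib and 0.759, 0.565 and 0.438 FPKM with DMSO. Fut10 ranged from 0.216 to 0.321 FPKM with lenvatinib and from 0.210 to 0.314 FPKM with DMSO. Fut7, the leukocyte enzyme of selectin ligands, and Fut9 had at most 7 reads in any library.

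**Figure D3:**
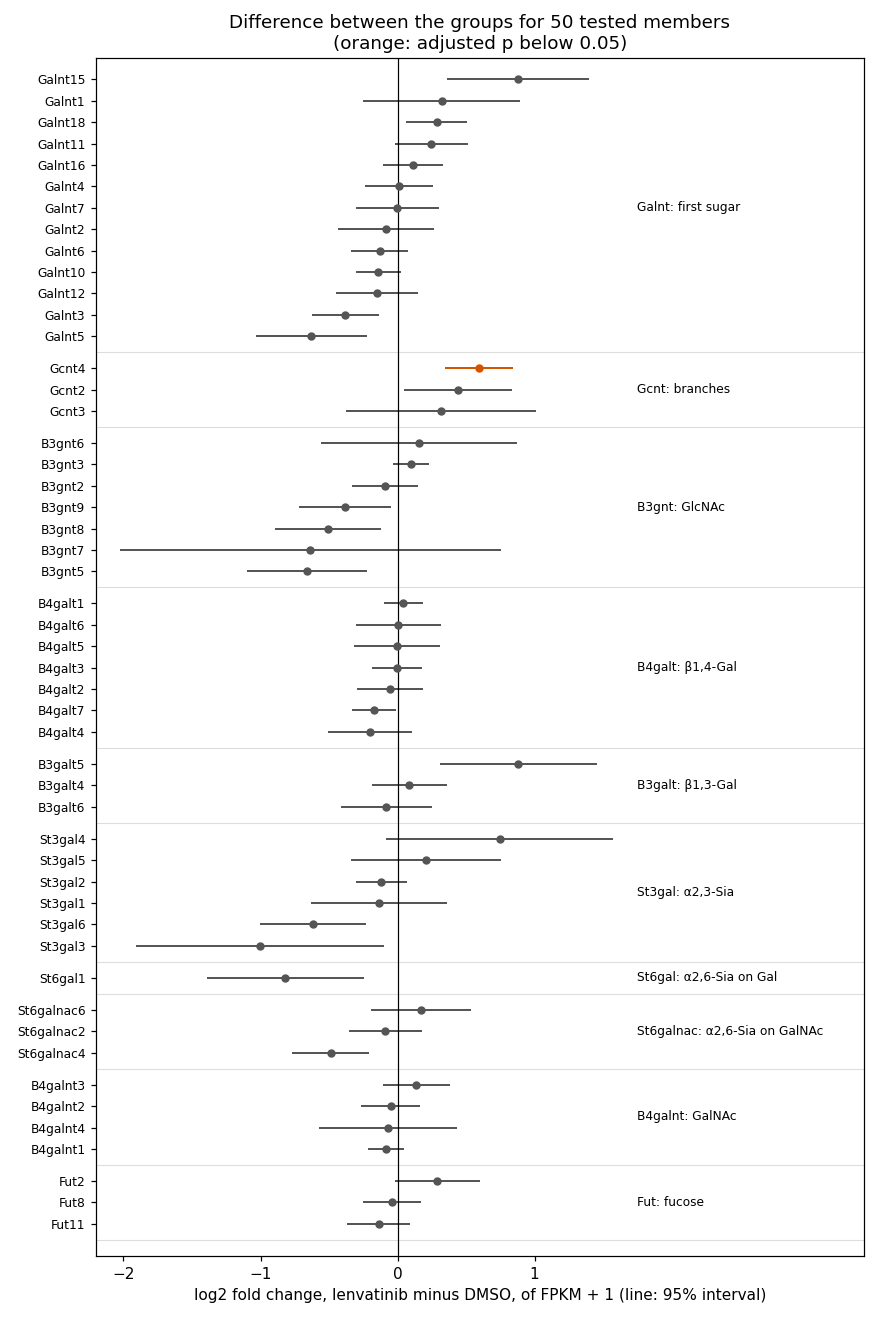
Difference of each tested member on the log2(FPKM + 1) scale, lenvatinib minus DMSO, with its 95% interval from limma, grouped by family; positive values are higher with lenvatinib. Gcnt4 (orange, 0.36 to 0.83) is the only member called, and several intervals that leave 0 out, such as those of St6gal1, Galnt15 and B3galt5, belong to members that did not pass after adjustment over 11774 genes.

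The members differed in which libraries stood apart. For each tested gene the 6 log2 values were sorted and the widest gap between neighbours was taken. In 9 of 50 members (18%) this gap set DMSO 2 and 3 below the other 4 libraries, as it did in 3.24% of all genes tested. These members were Galnt1, Galnt15, Gcnt2, B4galt1, B3galt5, St3gal4, St6galnac6, B4galnt3 and Fut2, spread over 8 of the 10 families. In 8 members (16%) lenvatinib 1 was low alone, against 4.66% of all genes. In 5 (10%) DMSO 1 was high alone, against 5.36%, and in 4 (8%) lenvatinib 2 and 3 were low together, against 22.8%. The widest gap lay between the treatment groups in Gcnt4, with lenvatinib high, and in B4galt7, with DMSO high (2% each). Over all genes tested these shares were 2.86% and 4.14%. These shares are a description of 6 libraries, and no test was made of them. A fit with weights per library called 35 members, when 64.4% of all genes were called.

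Galnt1 shows the first of these patterns in a widely expressed enzyme. It measured 22.9, 18.9 and 19.6 FPKM in lenvatinib 1 to 3, against 23.9, 12.6 and 13.8 FPKM in DMSO 1 to 3 (difference 0.32, adjusted p = 0.418). Markers of Paneth cells, which secrete antimicrobial peptides in the small intestine, are given beside this pattern. Of 11 such markers 8 were called higher with lenvatinib and none lower. Each of the 8 was lower in every DMSO library, DMSO 1 included, than in any lenvatinib library. The call itself selects against genes with DMSO 1 near the lenvatinib libraries, so the 8 cannot show whether the list shares this pattern. The defensin gene Defa24 measured 94.8 to 139 FPKM with lenvatinib, against 1.13, 0 and 0 FPKM in DMSO 1 to 3, and Defa17 was listed at 0 in all DMSO libraries. The marker Ang4 pointed the other way without being called, at 6.69, 13.9 and 14.3 FPKM with lenvatinib and 1672, 51.2 and 55.3 FPKM with DMSO (difference -3.82, adjusted p = 0.188). The summed level of the list was 1122 to 1151 FPKM with lenvatinib and 2134, 143 and 150.3 FPKM in DMSO 1 to 3. In this sum DMSO 2 and 3 lay below all other libraries, and most of the DMSO 1 level was Ang4. The part of these transcripts in the results of the members was not tested. In 34 of the 50 tested members (68%) the gap between library 1 and the mean of libraries 2 and 3 was larger than the difference between the treatment groups in at least 1 group, against 75.2% of all genes.

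**Figure D4:**
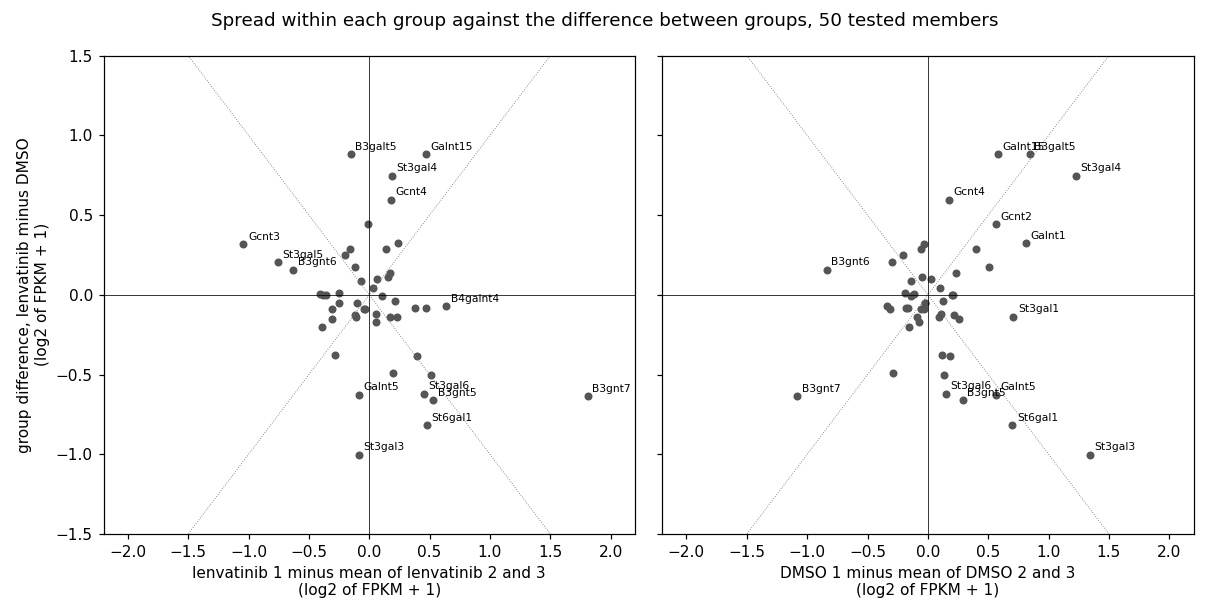
Group difference (vertical axis) against the gap between library 1 and the mean of libraries 2 and 3 of the lenvatinib group (left) and of the DMSO group (right), all on the log2(FPKM + 1) scale; each point is 1 of 50 tested members and dotted lines mark equal size. In the lenvatinib panel Gcnt3 lies at the far left (-1.04) and B3gnt7 at the far right (1.81), and in the DMSO panel St3gal3 and St3gal4 lie at the far right (1.34 and 1.22).

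Other genes of the same pathway were counted by lists. Both genes of core 1 synthesis, C1galt1 and its chaperone C1galt1c1, were not called. C1galt1 measured 25.4 to 27.1 FPKM with lenvatinib and 28.1 to 32.1 FPKM with DMSO (difference -0.18, adjusted p = 0.214). Of 19 tested genes that supply sugar nucleotides none was called, and the median difference was -0.01. Those with the smallest p were Gmds, which starts GDP-fucose synthesis, at 202 to 213 FPKM with lenvatinib and 172 to 184 FPKM with DMSO (adjusted p = 0.107), and Uap1l1 (adjusted p = 0.117). None of 8 Golgi sugar nucleotide transporters was called either. The nearest was Slc35a1, which carries the sialic acid donor into the Golgi, at 15.4 to 16.8 FPKM with lenvatinib and 20.1 to 23.2 FPKM with DMSO (difference -0.41, adjusted p = 0.0581), followed by the UDP-galactose transporter Slc35a2 (difference -0.18, adjusted p = 0.205).

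Among 9 sulfotransferase pathway genes and 7 genes that remove sugars none was called, with medians of -0.13 and 0.20. The sulfotransferase Chst2 measured 0.525 to 0.925 FPKM with lenvatinib and 1.25 to 1.49 FPKM with DMSO (difference -0.53, adjusted p = 0.0880), and Chst4 had a difference of -0.48 (adjusted p = 0.1503). The sialidase Neu1 measured 33.4, 49.0 and 49.5 FPKM with lenvatinib, against 28.7, 27.6 and 27.6 FPKM with DMSO (difference 0.61, adjusted p = 0.110), and the fucosidase Fuca1 had a difference of 0.26 (adjusted p = 0.169). Of 5 tested genes of other capping enzymes 1 fell, A4gnt, which caps gastric gland mucin with N-acetylglucosamine. It measured 10.2, 11.97 and 12.2 FPKM with lenvatinib and 20.5, 17.7 and 17.4 FPKM with DMSO (difference -0.65, adjusted p = 0.0322). The call was lost without DMSO 1 (adjusted p = 0.0578), DMSO 2 (0.148), DMSO 3 (0.136), lenvatinib 2 (0.125) or lenvatinib 3 (0.118). It held without lenvatinib 1 (0.00511), when 38.0% of all genes were called. The A4gnt call was also lost with median-of-ratios scaling (0.0745) and quantile normalization (0.0750).

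The mucin proteins that carry these chains gave no call in 6 tested genes. Muc2 measured 71.0, 86.2 and 93.0 FPKM with lenvatinib, against 262, 122 and 136 FPKM with DMSO, without overlap (difference -0.97, adjusted p = 0.148). The membrane mucin Muc4 measured 17.7, 11.7 and 11.9 FPKM with lenvatinib and 22.5, 26.9 and 28.1 FPKM with DMSO (difference -0.88, adjusted p = 0.0670). Goblet cell markers had negative differences in 16 of 16 genes, 2 of them called lower. They summed to 3910.5, 5373 and 5357 FPKM in lenvatinib 1 to 3, against 14571, 6295 and 6510 FPKM in DMSO 1 to 3. In this sum DMSO 1 stood far above all other libraries.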

How the data were processed

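RNA sequencing libraries of mouse colon, 3 labelled lenvatinib and 3 labelled DMSO, were prepared with a VAHTS kit from TRIzol-extracted total RNA, per the labels' protocols. The authors deposited a table of FPKM values for 25339 genes, with 1 column for each library. HTSeq and the build GRCm39 are named in the submitters' processing notes. Aligner, annotation, strandedness and any filter: not given in the sources used here.

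Whole reads were recovered from the FPKM steps for 23936 of 23951 genes above 0, within 0.01 reads, which gave the depth per library; a gene with few reads gets the smallest numbers that fit. The 11774 genes that averaged 1 FPKM or more were tested on log2(FPKM + 1) with limma 3.58.1 in R 4.3.3, using a robust prior that follows mean expression; p-values were two-sided and adjusted by Benjamini-Hochberg at 0.05. The fit was also run on simulated reads with every library drawn independently. That setting lacks the closeness of libraries 2 and 3, so it cannot show how the p-values behave here. Alternatives were another pseudocount, other filters, scalings, priors and weights, voom, a replicate block, merging libraries 2 and 3, and leaving out each library.

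The members and lists were chosen with earlier results of these data known. Genes named with values are every called member, the 4 smallest p and the highest level of each family, with untested members given by range. Of each pathway list they are those called (at most 4) or else the 2 smallest p. Marker lists are given by counts or summed levels, and their called genes are not all named. Galnt1, Galnt10, Galnt12, Galnt7, B3gnt2, B3gnt6, B3gnt7, B4galt3, B4galt5, B4galt6, St3gal1, Fabp6, Defa17, Defa24, Ang4, Ddx3y and Xist were added after their values were seen. Promoter windows are from RefSeq. Exon overlaps are from GENCODE M21 on GRCm38, a build other than the authors', used only for which genes overlap.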

Additional observations from a re-analysis of the deposited data

How the results depend on the processing

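The single call among the members, Gcnt4, passed in 8 of 17 alternatives. It stayed called with a pseudocount of 0.1, a filter at 0.1 FPKM, median-of-ratios scaling, quantile normalization, the plain variance prior, voom and weights per library, and without lenvatinib 1. Without any filter 0 members and 140 of all genes were called, and 0 genes of the pathway lists, against 1, 239 and 1 in the fit reported. The numbers of the libraries were not taken as pairs. Deviations of same-numbered libraries from their group means had correlations of -0.196, -0.159 and -0.151. As libraries 2 and 3 lay close together, these values mostly repeat the gap of library 1 and cannot settle pairing. With the replicate block the counts were 0, 29 and 0, and the adjusted p of Gcnt4 was 0.112. With libraries 2 and 3 averaged they were 0, 3 and 0, and with these libraries as a random block 0, 46 and 0. With weights per library they were 35, 7582 and 36, and voom called 2 pathway genes. At an unadjusted p below 0.05 there were 16 members and 3570 genes without a filter, 16 and 2012 with the block, 7 and 647 with averaging, and 9 and 818 with the random block, by limma. Leaving out 1 library gave 0 to 15 members, 45 to 4479 genes and 0 to 18 pathway genes, with 9 to 20 members at an unadjusted p below 0.05. The 15 members, 4479 genes and 18 pathway genes came without lenvatinib 1, and the cause was not tested. The sign turned for 6 named members that were not called, all with small differences. With quantile normalization the differences were 0.0527 for B4galt2, 0.0319 for B3galt6, 0.0503 for B4galnt4 and 0.0164 for Fut8. With median-of-ratios scaling they were 0.0256 for B4galnt2 and 0.0333 for Fut8, with averaging 0.0127 for B3galt6 and 0.0911 for B4galnt4, with the random block 0.00531 for B3galt6 and 0.0783 for B4galnt4, and with weights 0.0179 for B4galnt2. Leaving out 1 library gave -0.283 to 0.0673 for B4galnt4, -0.108 to 0.0323 for B4galnt2, -0.110 to 0.0136 for Fut8 and -0.0512 to 0.0951 for Galnt4. The median difference of all genes was -0.07 in the fit reported, -0.00 with median-of-ratios scaling and 0.01 with quantile normalization. Depth limits only the low members. Near 1 FPKM a member such as B3gnt8 rested on 40 to 118 reads per library, while B4galnt2 had at least 62473.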
